A study of Rattus norvegicus with 24 samples.

Results

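The 31 mitosis genes described here code for cyclins, kinases, checkpoint proteins, kinesins, kinetochore proteins, spindle proteins and chromosome proteins that act when a cell divides. They were taken by name, and for each gene the probe set with the highest mean signal was used among the probe sets assigned to that gene alone. All 31 were measured, of 13438 genes in all. The rule uses no difference between groups, but the members were chosen with earlier results of these data known.

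The study measured RNA in livers of male Sprague Dawley rats aged 8 weeks on 24 one-colour arrays, 1 rat per array, in 4 groups of 6. ANIT (alpha-naphthylisothiocyanate, a compound that damages bile duct epithelium and hepatocytes in rodents) was given once into the stomach at 50 mg/kg, dissolved in corn oil, and the livers were taken at 24 h or 120 h. The vehicle rats received corn oil alone in the same volume of 10 ml/kg, and each time point had its own vehicle group. All rats in the 4 groups were fasted for about 18 h before necropsy and were injected with the thymidine analogue BrdU at 100 mg/kg about 2 h before it, so these treatments are common to ANIT and vehicle. By the submitters' description, the earlier time point fell at the height of the injury and the later one during its resolution. The values are log2 expression values as deposited, so a difference of 1 is a 2-fold change. The 10 hepatocyte markers had a mean value of 11.8 to 12.2 on every array, the level of abundant liver transcripts. A whole liver holds many cell types, and fewer cells of a type cannot be told apart here from less RNA per cell.

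Mitosis genes are transcribed in waves. In resting cells a repressor complex called DREAM holds them silent through a short promoter element, the cell cycle homology region, and in dividing cells the same sites are used by activators of the B-MYB and FOXM1 type, often together with the factor NF-Y bound at CCAAT boxes. Their transcripts rise in the G2 phase, reach a peak as chromosomes condense and align, and fall as the cell leaves mitosis. The adult liver is mostly quiescent, and hepatocytes, bile duct cells and other liver cells enter the cycle again after injury, so these genes are widely used as a readout of liver regeneration.

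The promoters of 10 of the 12 members that changed between groups are shown. They differ in whether, and in what arrangement, they hold the letters marked below. The stretches run from 150 bases before the annotated start site to 20 bases after it, from RefSeq on build GRCr8, and are written on the strand of the gene. Capitals mark the core of the cell cycle homology region, TTTGAA or its reverse complement TTCAAA, and the CCAAT box or its reverse complement ATTGG.
Nusap1 (chr3:127057145-127057314, plus strand): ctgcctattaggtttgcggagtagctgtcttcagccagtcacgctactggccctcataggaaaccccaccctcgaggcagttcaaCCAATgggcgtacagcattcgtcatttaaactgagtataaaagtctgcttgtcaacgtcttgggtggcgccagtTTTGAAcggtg
Prc1 (chr1:143659331-143659500, plus strand): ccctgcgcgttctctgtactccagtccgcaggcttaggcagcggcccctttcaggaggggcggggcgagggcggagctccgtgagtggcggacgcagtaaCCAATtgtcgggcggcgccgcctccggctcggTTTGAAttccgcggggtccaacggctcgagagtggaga
Birc5 (chr10:103571996-103572165, plus strand): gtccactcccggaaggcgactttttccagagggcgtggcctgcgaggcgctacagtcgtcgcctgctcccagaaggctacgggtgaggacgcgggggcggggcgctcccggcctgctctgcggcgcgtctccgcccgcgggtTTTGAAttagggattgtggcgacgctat
Top2a (chr10:84473074-84473243, minus strand): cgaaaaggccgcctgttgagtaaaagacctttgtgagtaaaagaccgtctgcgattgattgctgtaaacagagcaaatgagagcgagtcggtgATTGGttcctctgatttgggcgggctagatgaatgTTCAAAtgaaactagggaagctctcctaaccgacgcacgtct
Ccnb2 (chr8:79981639-79981808, minus strand): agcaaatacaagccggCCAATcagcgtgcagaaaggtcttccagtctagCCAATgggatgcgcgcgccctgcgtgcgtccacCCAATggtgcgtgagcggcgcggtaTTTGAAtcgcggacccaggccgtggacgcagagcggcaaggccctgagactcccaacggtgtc
Cdk1 (chr20:19265143-19265312, plus strand): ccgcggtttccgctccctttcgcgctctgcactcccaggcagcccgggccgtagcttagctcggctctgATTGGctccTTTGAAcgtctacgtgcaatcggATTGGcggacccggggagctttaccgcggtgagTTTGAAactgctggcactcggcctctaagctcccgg
Hmmr (chr10:25665196-25665365, minus strand): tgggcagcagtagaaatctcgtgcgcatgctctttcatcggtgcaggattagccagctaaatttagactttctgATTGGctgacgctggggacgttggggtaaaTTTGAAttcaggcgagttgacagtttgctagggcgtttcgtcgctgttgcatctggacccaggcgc
Ccnb1 (chr2:33655206-33655375, minus strand): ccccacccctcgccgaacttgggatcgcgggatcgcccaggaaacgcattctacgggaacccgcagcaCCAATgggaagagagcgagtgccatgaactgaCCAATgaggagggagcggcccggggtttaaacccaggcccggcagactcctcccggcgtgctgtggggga
Dlgap5 (chr15:23144157-23144326, minus strand): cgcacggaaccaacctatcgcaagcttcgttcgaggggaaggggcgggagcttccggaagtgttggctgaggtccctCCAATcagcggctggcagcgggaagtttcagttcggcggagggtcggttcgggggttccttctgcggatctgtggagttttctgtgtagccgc
Bub1 (chr3:135504902-135505071, minus strand): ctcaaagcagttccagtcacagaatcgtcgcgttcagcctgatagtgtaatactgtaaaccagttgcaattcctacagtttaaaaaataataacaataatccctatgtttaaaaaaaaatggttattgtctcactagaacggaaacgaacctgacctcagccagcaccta
In Prc1 the core begins at position -18 and a CCAAT box at -50, counted with the start site as 1 and the base before it as -1. In Top2a both matches are on the other strand, at -22 and -57. Nusap1 has its core at position 10, inside the transcript, and a CCAAT box at -65. Cdk1 has a core at -72 and another at -16. Ccnb2 has 3 CCAAT boxes at -134, -101 and -68. Ccnb1 and Dlgap5 hold CCAAT boxes without TTTGAA or TTCAAA in the window, and the Bub1 window holds no match to either motif. Other forms of the elements were not searched for. Bub1b and Nuf2, the changed members not shown, hold the core, at -4 and 30, without a CCAAT box in the window. RefSeq windows matched 27 of the 31 members, with 28 windows since Kif2c has 2 start sites. Aurkb, Ccna2, Pbk and Ube2c had none.

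Over the full windows, 250 bases before to 50 after the start site, the core was found on either strand in 17 of the 28 member windows, 60.7%, against 12.5% of the windows of all genes measured on the arrays and 18.3% of all 33469 windows. The CCAAT box was found in 75.0% of member windows, against 36.9% and 37.5%. Both were found in 53.6% of member windows, against 5.15% and 7.41%. In Mki67 and Cdca8 a match to the core shares its last base with a match to the CCAAT box. These are counts of letters in the windows and say nothing of binding in these livers.

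**Figure D1:**
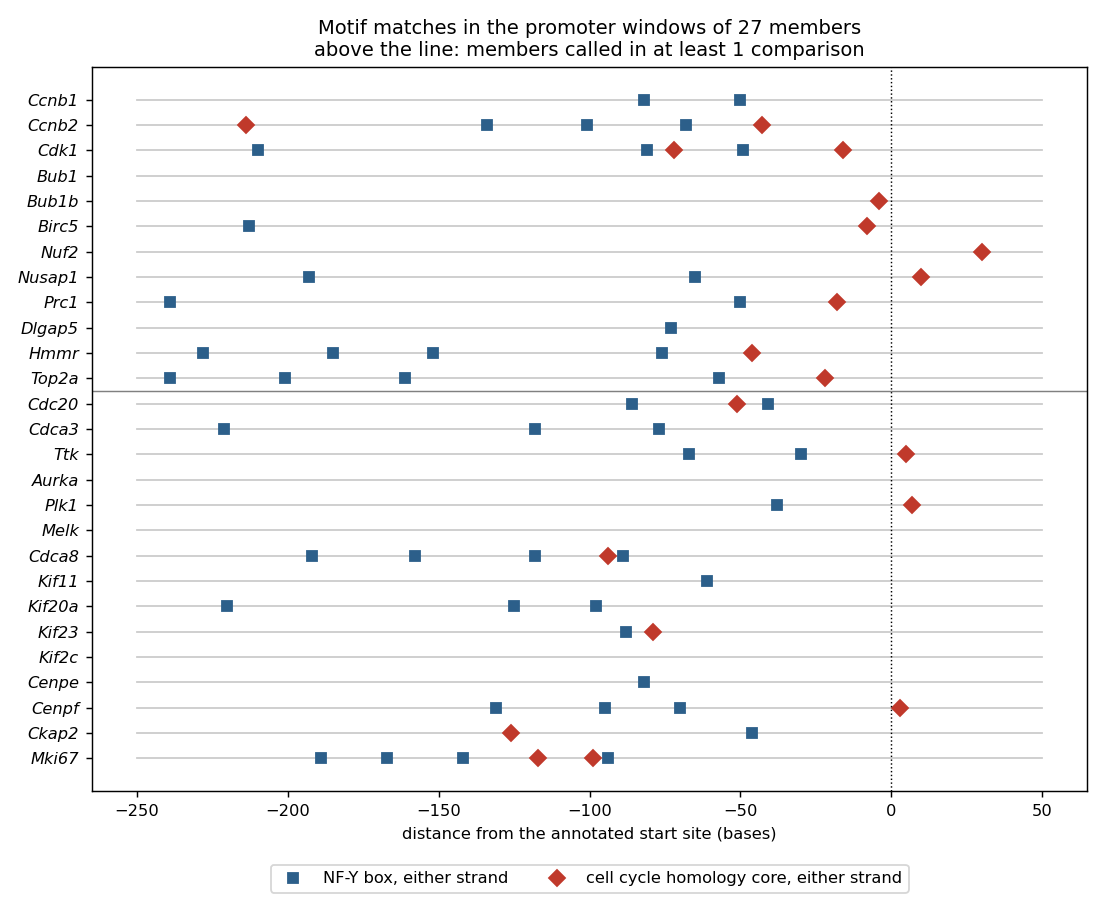
Position of matches to the cell cycle homology core (diamonds) and the NF-Y box (squares), on either strand, in the promoter windows of 27 mitosis genes, as the distance in bases from the annotated start site. The 12 members above the line were called in at least 1 comparison. In Prc1 the core is at -18 and the nearest NF-Y box at -50, while in Ckap2 the core is at -126 and the box at -46.

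The probe sets of these genes gave weak signal. Their mean over the 24 arrays ran from 2.87 for Bub1b to 7.01 for Mki67, with a median of 4.82 against 6.18 for all genes, and 24 of the 31 lay under the 40th percentile of signal. Probe sets differ in how well they hybridise, so these values do not rank the transcripts by amount. The brightest of the 23 nonspecific control probe sets read 2.88 to 3.10 depending on the array, and the mean of Bub1b was below that.

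The 4 groups did not stand in a simple order. ANIT at 24 h had the lowest group mean for 28 of the 31 members, while Cdc20 and Pbk were lowest in vehicle at 120 h and Melk in vehicle at 24 h. The highest group mean was in ANIT at 120 h for 14 members, in vehicle at 24 h for 11, in vehicle at 120 h for 5 and in ANIT at 24 h for 1. The mean of the 31 members per array was 4.57 to 5.05 in vehicle at 24 h, 4.47 to 4.82 in ANIT at 24 h, 4.83 to 5.12 in vehicle at 120 h and 4.82 to 5.09 in ANIT at 120 h. The ANIT arrays at 24 h thus lay below every array taken at 120 h, and overlapped with the single lowest vehicle array at 24 h.

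Some array measures also differed. The log2 ratio of the 3' to the 5' end of beta-actin, a measure of RNA integrity and labelling, was 2.98 to 3.18 in ANIT at 24 h and 2.77 to 2.91 in vehicle at 24 h, so all 6 ANIT arrays were above all 6 vehicle arrays. It was 2.76 to 2.98 in vehicle at 120 h and 2.48 to 2.93 in ANIT at 120 h, so the ANIT groups did not overlap in it either. In both comparisons the ratio goes with the group, and a fit with it as a covariate cannot fully tell them apart. The standard deviation (SD) of all values on an array ran from 1.84 to 2.09, and the 6 arrays with the smallest SD were vehicle at 24 h replicates 3, 4 and 5 and ANIT at 120 h replicates 4, 5 and 6. Fits with each of these measures as a covariate, or without the 6 arrays, were made, and beyond those fits the part of these measures in the results was not tested.

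The comparison of ANIT with vehicle at 24 h asks how the genes stood at the height of the injury. Of the 31 members, 3 fell and 28 were not called, and no member rose. A gene is called here when its limma p, adjusted by Benjamini-Hochberg over 13438 genes, was under 0.05. Over all genes 18.2% were called in this comparison, 12.9% higher and 5.31% lower, against 9.68% of the members, all lower. The change was negative in 30 of 31 members, with a median of -0.22 against 0.00 for all genes.

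Hmmr, a hyaluronan receptor that also binds the spindle, read 4.37 to 4.98 (median 4.50) in vehicle at 24 h and 3.95 to 4.35 (median 4.12) in ANIT. Every ANIT array was below every vehicle array, which held for no other member and for 2.32% of all genes in that direction. The change was -0.42 ± 0.12 (SE, adjusted p = 0.0131). Its second probe set changed by -0.29. Dlgap5, a spindle microtubule protein also called HURP, read 5.71 to 6.41 (median 6.25) in vehicle and 5.35 to 5.92 (median 5.54) in ANIT. The groups overlapped through the lowest vehicle array, and 5 of 6 ANIT arrays were below all vehicle arrays. It fell by 0.59 (adjusted p = 0.0175).

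Ccnb1, the B-type cyclin that activates Cdk1 at entry into mitosis, read 4.49 to 5.74 (median 5.35) in vehicle and 4.15 to 5.04 (median 4.90) in ANIT at 24 h. A single vehicle array, at 4.49, lay among the ANIT arrays, and the other 5 were above all of them. The change was -0.54 ± 0.18 (adjusted p = 0.0413). Its dimmer probe set changed by 0.10, so the fall rests on 1 of 2 probe sets.

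Several members had changes of like size that did not pass. Top2a, the topoisomerase that untangles sister chromatids, read 4.80 to 5.77 (median 5.71) in vehicle and 4.81 to 5.72 (median 4.99) in ANIT, a change of -0.44 ± 0.22 (adjusted p = 0.168), with 1 vehicle array, at 4.80, below all ANIT arrays and 1 ANIT array, at 5.72, among the vehicle arrays. Birc5, the survivin subunit of the chromosomal passenger complex, changed by -0.38 ± 0.14 (adjusted p = 0.0705), with 5 of 6 ANIT arrays below all vehicle arrays. Nusap1 changed by -0.36 ± 0.14 (adjusted p = 0.0767), also with 5 of 6 arrays below. Mki67, the source of the Ki-67 antigen, changed by -0.57 ± 0.44 (adjusted p = 0.398), with vehicle values of 4.87 to 8.09 (median 7.57). At the other end, the mitotic kinases Aurka and Plk1 changed by -0.002 and -0.03, each with an SE of 0.12.

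The 3 calls at 24 h depend on the model. With the beta-actin ratio as a covariate, or without the 6 arrays of smallest SD, 0 members were called. Hmmr then stood at -0.44 (adjusted p = 0.157) and -0.32 (adjusted p = 0.139), and over all settings between -0.44 and -0.32. Dlgap5 and Ccnb1 ran from -0.62 to -0.33 and from -0.60 to -0.22, and Ccnb1 kept its call in 3 of 10 settings and with 16 of 24 arrays left out. Over all genes 462 were called higher and 445 lower with the beta-actin ratio, and 821 and 733 without the 6 arrays. The fit of all arrays without a covariate called 1738 and 713. With arrays shifted to a common median Dlgap5 alone was called. With array SD as a covariate 6 were lower, namely Top2a, Bub1, Birc5, Nusap1, Dlgap5 and Hmmr, and without vehicle at 24 h replicate 1 there were 7. Of all genes 1420 and 1006 were called lower in those fits.

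At 120 h, ANIT and vehicle were compared during recovery, and no member was called in limma's test. Over all genes 2.02% were called, 0.513% higher and 1.51% lower, and 2 members, Bub1b and Nusap1, had an unadjusted p under 0.05. The changes ran from -0.23 for Cdca3 to 0.39 for Mki67, were positive in 21 of 31, and had a median of 0.07 against -0.01 for all genes.

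Nusap1, a protein that bundles spindle microtubules, read 5.18 to 6.10 (median 5.45) in vehicle and 5.48 to 6.16 (median 5.84) in ANIT. The groups overlapped, with 1 ANIT array above all vehicle arrays, and the change was 0.32 ± 0.14 (adjusted p = 0.295). Bub1b, the checkpoint protein BubR1, read 2.62 to 2.95 (median 2.83) in vehicle and 2.95 to 3.07 (median 3.01) in ANIT, with no overlap, as for 0.558% of all genes in that direction and 1.58% in the other. The change was 0.20 ± 0.08 (adjusted p = 0.262), and all these values lie near those of the nonspecific controls. Cdk1, the kinase at the centre of mitotic entry, read 4.57 to 5.30 (median 4.88) in vehicle and 4.41 to 5.74 (median 4.83) in ANIT, a change of 0.01 ± 0.18 (adjusted p = 0.995). Mki67 read 5.84 to 7.41 (median 7.13) in vehicle and 6.52 to 8.23 (median 7.34) in ANIT. The 3 ANIT arrays above every vehicle array were those of smallest SD, and the change was 0.39 ± 0.44 (adjusted p = 0.721). No setting and no array left out gave a call among the members in this comparison.

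**Figure D2:**
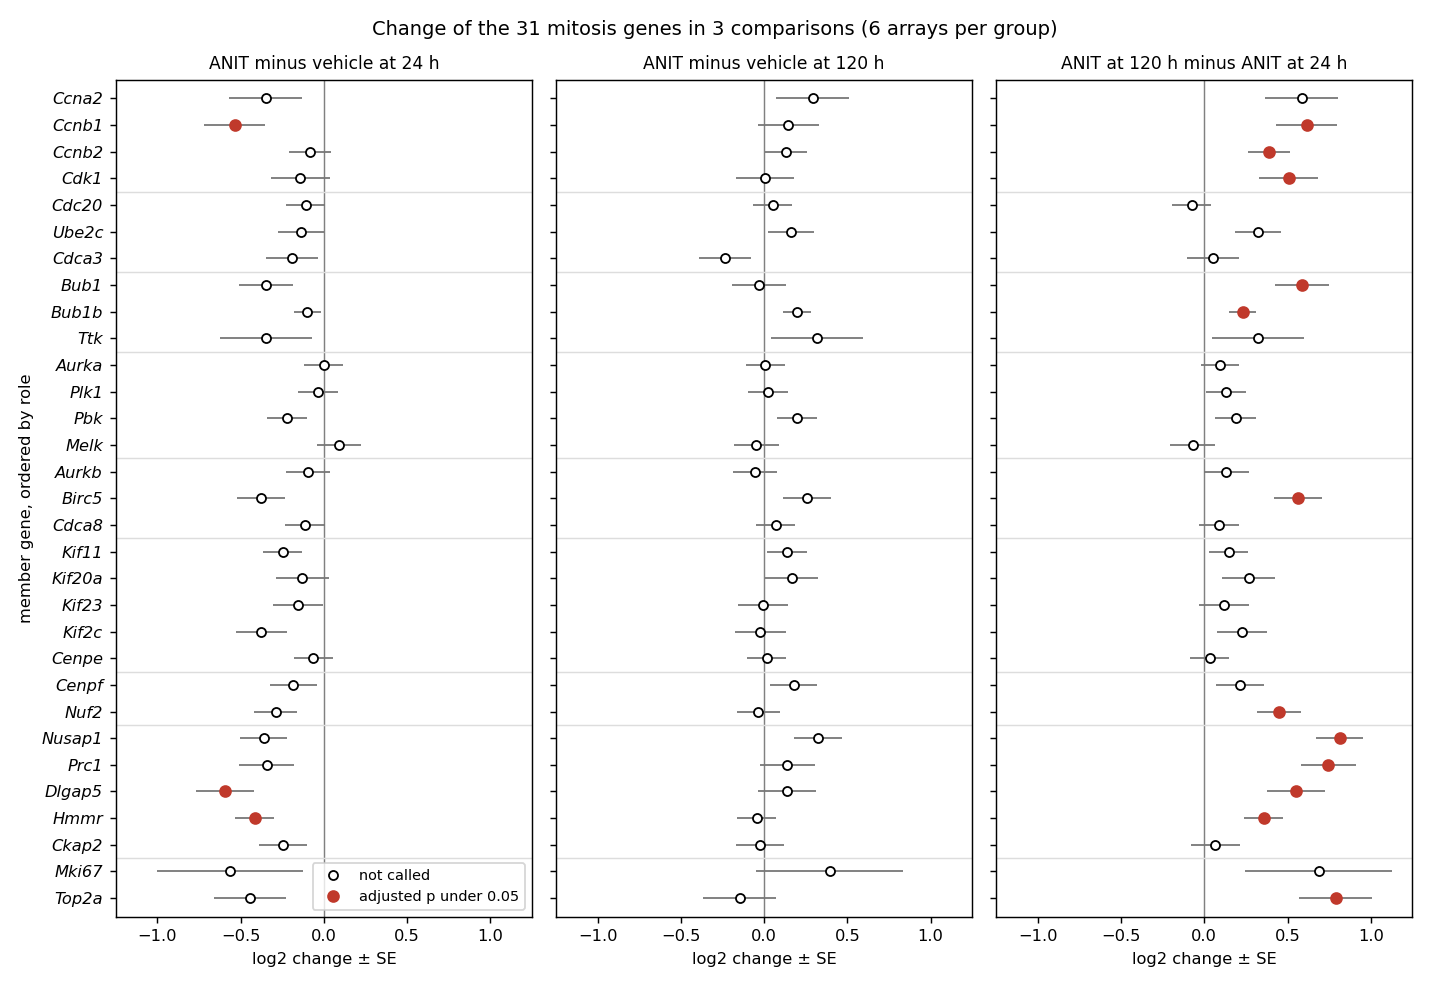
Log2 change ± SE of each of the 31 mitosis genes in 3 comparisons, 6 arrays per group, ordered by role with lines between roles. Filled points had an adjusted p under 0.05 (limma): 3 members lower in ANIT at 24 h, none at 120 h, and 12 higher in ANIT at 120 h than in ANIT at 24 h.

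Most calls among the members came between the ANIT groups themselves. From 24 h to 120 h after ANIT, 12 of the 31 members rose, 38.7%, and none fell, where 21.1% of all genes were called, 7.79% higher and 13.3% lower. The change was positive in 29 of 31 members, with a median of 0.27 against 0.01 for all genes. The ANIT arrays at 24 h are the same ones that were set against vehicle above, so both sets of values share them.

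Among the spindle proteins, Nusap1 had the largest change. It read 4.75 to 5.35 (median 5.01) in ANIT at 24 h and 5.48 to 6.16 (median 5.84) in ANIT at 120 h, without overlap. It rose by 0.81 ± 0.14 (adjusted p = 0.000128), which is 1.76-fold, and its dimmer probe set changed by 0.24. Prc1, which cross-links microtubules of the spindle midzone before cytokinesis, read 4.998 to 5.80 (median 5.41) at 24 h and 5.76 to 6.43 (median 6.22) at 120 h. The groups overlapped by a single array on each side, and the rise was 0.75 ± 0.17 (adjusted p = 0.00163). Dlgap5 read 5.52 to 6.74 (median 6.16) at 120 h, rising by 0.55 ± 0.17 (adjusted p = 0.0243). Of those arrays, 4 were above every ANIT array at 24 h, and the 3 highest were arrays of small SD. Hmmr read 4.24 to 4.79 (median 4.48) at 120 h, again with 4 of 6 above all arrays at 24 h, and rose by 0.36 ± 0.12 (adjusted p = 0.0299). Ckap2, the remaining spindle protein, changed by 0.07 ± 0.14 (adjusted p = 0.796).

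Of the cyclins and their kinase, 3 of 4 rose. Ccnb1 read 4.96 to 5.72 (median 5.40) in ANIT at 120 h and 4.15 to 5.04 (median 4.90) at 24 h, with 5 of 6 arrays at 120 h above all at 24 h. It rose by 0.62 ± 0.18 (adjusted p = 0.0164), and the change of its dimmer probe set was 0.08. Ccnb2, the other B-type cyclin, read 5.61 to 5.98 (median 5.74) at 24 h and 5.91 to 6.52 (median 6.17) at 120 h, with overlapping groups. Its rise was 0.39 ± 0.13 (adjusted p = 0.0302). Cdk1 read 4.17 to 4.62 (median 4.34) at 24 h and 4.41 to 5.74 (median 4.83) at 120 h. It rose by 0.51 ± 0.18 (adjusted p = 0.0416), and 2 arrays at 120 h stayed within the range of 24 h. Ccna2, the cyclin of S and G2 phase, changed by 0.58 ± 0.22 and did not pass (adjusted p = 0.057).

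Among the checkpoint proteins, which hold anaphase back until chromosomes are attached, Bub1 read 3.79 to 4.18 (median 3.99) at 24 h and 4.14 to 4.86 (median 4.70) at 120 h. A single array at 120 h lay within the range of 24 h, and the rise was 0.59 ± 0.16 (adjusted p = 0.0104). Bub1b read 2.68 to 2.91 (median 2.77) at 24 h and 2.95 to 3.07 (median 3.01) at 120 h, and rose by 0.23 ± 0.08 (adjusted p = 0.0454) at a mean signal below the brightest nonspecific control set. That call held in 5 of 10 settings and with 7 of 24 arrays left out in turn. Bub1b and Nusap1 were the 2 members whose ANIT groups did not overlap, against 3.83% of all genes higher and 6.13% lower in that way. Ttk, the checkpoint kinase also called MPS1, changed by 0.32 ± 0.28 (adjusted p = 0.472).

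Birc5 was the member of the chromosomal passenger complex that rose. It read 5.37 to 5.94 (median 5.68) at 24 h and 5.86 to 6.44 (median 6.22) at 120 h, with 1 overlapping array, and its change was 0.56 ± 0.14 (adjusted p = 0.00542). Its partners were not called. Aurkb, the kinase of the complex, read 2.79 to 3.24 (median 3.02) at 24 h and 2.89 to 3.56 (median 3.08) at 120 h, a change of 0.13 ± 0.13 (adjusted p = 0.545), at a signal near the nonspecific controls. Cdca8, or borealin, changed by 0.09 ± 0.12 (adjusted p = 0.656). Whether Birc5 differed from its partners was not tested.

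Top2a read 4.81 to 5.72 (median 4.99) in ANIT at 24 h and 5.41 to 6.42 (median 5.84) at 120 h, with 5 of 6 arrays at 120 h above all at 24 h. It rose by 0.79 ± 0.22 (adjusted p = 0.0102), and its dimmer probe set changed by 0.50. Nuf2, a subunit of the NDC80 complex that grips microtubules at the kinetochore, read 4.57 to 5.24 (median 5.0026) at 24 h and 5.11 to 5.58 (median 5.39) at 120 h. Its rise was 0.45 ± 0.13 (adjusted p = 0.0147). Cenpf, also of the kinetochore, changed by 0.22 ± 0.14 (adjusted p = 0.327).

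None of the 5 kinesins, the 4 kinases Aurka, Plk1, Pbk and Melk, or the 3 proteins of mitotic entry and exit was called. The kinesins Kif11, Kif20a, Kif23, Kif2c and Cenpe, motors that build the spindle and the cleavage furrow, had changes from 0.03 for Cenpe to 0.27 for Kif20a. The kinases ran from -0.07 for Melk to 0.19 for Pbk. Ube2c, the ubiquitin-conjugating enzyme of the anaphase-promoting complex, changed by 0.32 ± 0.14 (adjusted p = 0.105), and Cdc20, the activator of that complex, by -0.08 ± 0.11 (adjusted p = 0.698). Cdca3, a factor of mitotic entry, changed by 0.05. Mki67 read 5.67 to 7.38 (median 6.67) at 24 h and 6.52 to 8.23 (median 7.34) at 120 h, a change of 0.69 ± 0.44 (adjusted p = 0.305).

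The count of 12 was smaller in some fits. With the beta-actin ratio as a covariate, which did not overlap between the ANIT groups, 2 members were called, Birc5 at 0.85 and Nusap1 at 0.91. Over all genes that fit called 534 higher and 346 lower, against 1047 and 1785 without the covariate. Without the 6 arrays of smallest SD 6 members were called (Top2a, Cdk1, Bub1, Birc5, Nusap1 and Prc1), beside 1427 higher and 878 lower of all genes. Without ANIT at 24 h replicate 1, 3 or 6, 7 members were called. Birc5 and Nusap1 were called in every setting in which they were tested and with each array left out in turn.

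**Figure D3:**
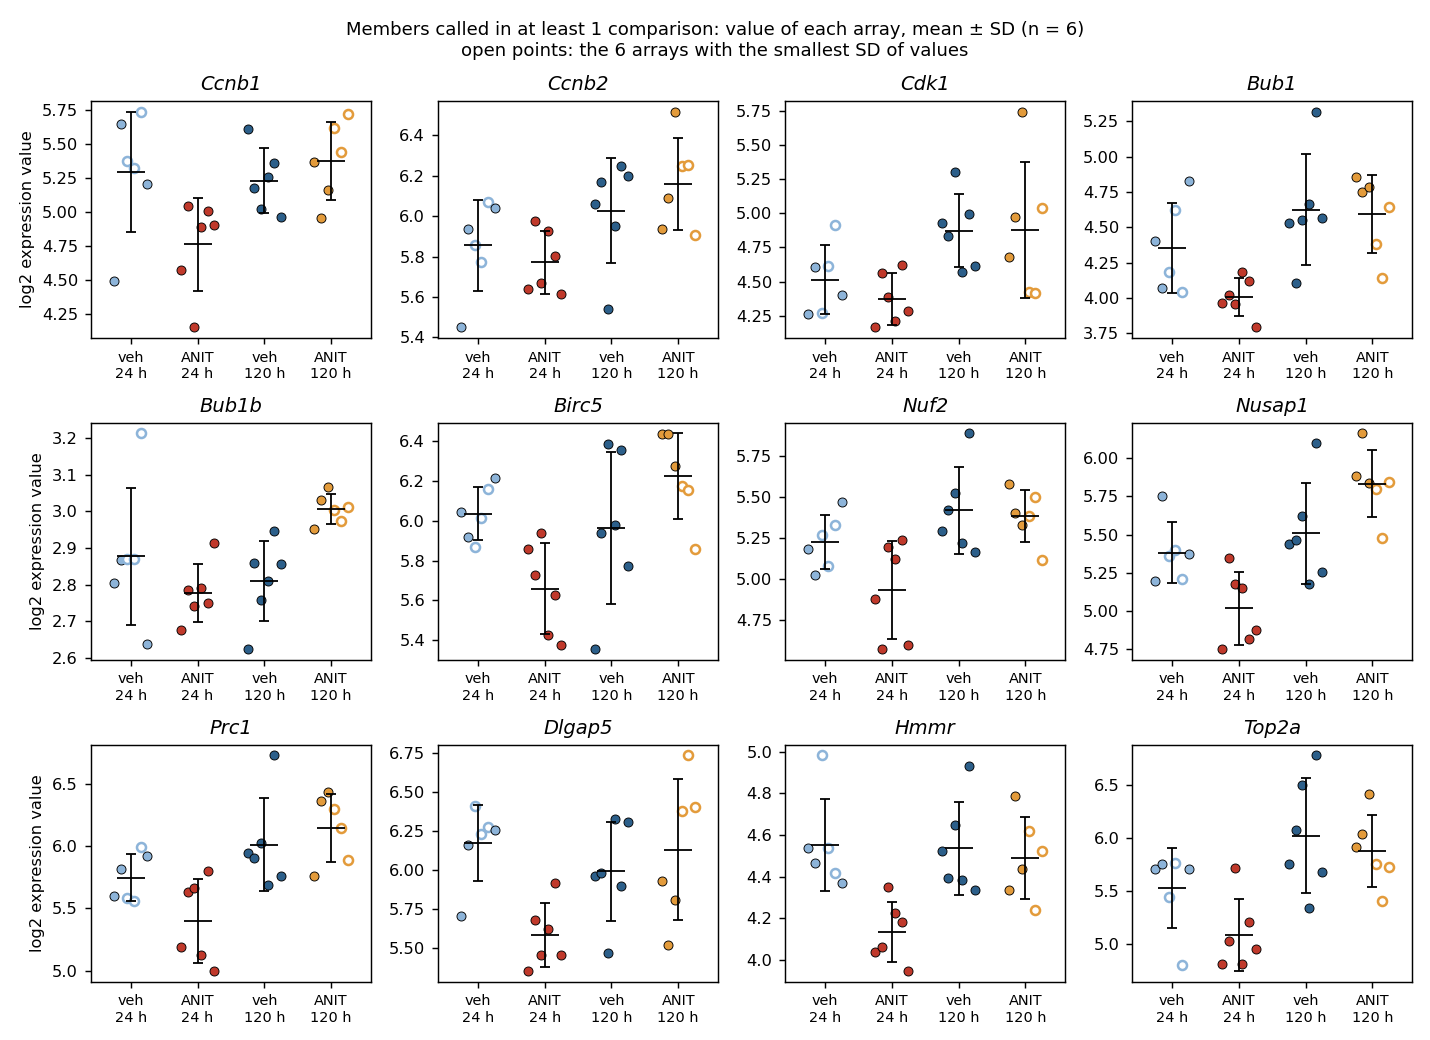
Log2 expression value of each array for the 12 members called in at least 1 comparison, by group (vehicle and ANIT at 24 h and 120 h), with mean ± SD over 6 arrays. Open points are the 6 arrays with the smallest SD of values. Nusap1 and Bub1b show no overlap between ANIT at 24 h and ANIT at 120 h.

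Vehicle rats at 120 h and at 24 h were compared in the same way, as a measure of what differed between the time points without ANIT. No member was called (limma), with 2 at an unadjusted p under 0.05, and over all genes 0.00744% were called. The median change was -0.03 against 0.04 for all genes. Top2a differed most, reading 4.80 to 5.77 (median 5.71) at 24 h and 5.34 to 6.78 (median 5.92) at 120 h, a change of 0.49 ± 0.22 (adjusted p = 0.382). Cdk1 read 4.26 to 4.92 (median 4.51) and 4.57 to 5.30 (median 4.88), a change of 0.36 ± 0.18 (adjusted p = 0.413).

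Of the other members called in a comparison, Prc1 read 5.56 to 5.99 (median 5.71) in vehicle at 24 h and 5.69 to 6.73 (median 5.92) in vehicle at 120 h. Ccnb2 read 5.45 to 6.07 (median 5.90) and 5.54 to 6.25 (median 6.11) in the same order. Bub1 read 4.04 to 4.83 (median 4.29) and 4.11 to 5.32 (median 4.56). For these 3 members the vehicle groups overlapped, with the higher median at 120 h. Nuf2 read 5.02 to 5.47 (median 5.23) in vehicle at 24 h and 5.17 to 5.89 (median 5.36) at 120 h, and Bub1b read 2.64 to 3.21 (median 2.87) at 24 h. In vehicle at 120 h Ccnb1 read 4.96 to 5.61 (median 5.22) and Hmmr 4.34 to 4.93 (median 4.46). Aurkb read 2.82 to 3.26 (median 3.15) in vehicle at 24 h and 2.89 to 3.63 (median 3.02) at 120 h, so its 4 groups overlapped.

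The interaction, the ANIT effect at 120 h minus the ANIT effect at 24 h, takes the difference between the vehicle groups into account. It uses all 4 groups and so shares arrays with each comparison above. Here 3 members were called, all higher, which is 9.68% of the members, and 14.3% of all genes were called, 3.33% higher. The value was positive in 29 of 31 members, with a median of 0.30 against -0.02 for all genes. Birc5 read 5.87 to 6.21 (median 6.03) in vehicle at 24 h and 5.36 to 6.38 (median 5.96) in vehicle at 120 h, beside the ANIT values given above. Its effect moved from -0.38 at 24 h to 0.26 at 120 h, a difference of 0.64 ± 0.20 (adjusted p = 0.0366). For Nusap1, which read 5.20 to 5.75 (median 5.37) in vehicle at 24 h, the effects were -0.36 and 0.32, a difference of 0.69 ± 0.20 (adjusted p = 0.0226). For Dlgap5, which read 5.47 to 6.33 (median 5.97) in vehicle at 120 h, they were -0.59 and 0.14, a difference of 0.73 ± 0.25 (adjusted p = 0.0463).

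Top2a, Prc1, Cdk1 and Nuf2, which rose between the ANIT groups, had interaction values of 0.30, 0.48, 0.15 and 0.26 and were not called. Ccnb1 came closest among the rest, at 0.68 ± 0.26 (adjusted p = 0.0763). With each array shifted to a common median, or with the beta-actin ratio as a covariate, 0 members were called in the interaction. Nusap1 was then at 0.58 (adjusted p = 0.0781) and 0.78 (adjusted p = 0.156), and Birc5 at 0.53 (adjusted p = 0.126) and 0.91 (adjusted p = 0.0745). Without the 6 arrays of smallest SD Nusap1 kept its call, and Birc5, at 0.82 (adjusted p = 0.0647), and Dlgap5, at 0.22 (adjusted p = 0.734), did not. Dlgap5 was at 0.29 (adjusted p = 0.225) with array SD as a covariate, and its call held in 4 of 10 settings and with 7 of 24 arrays left out in turn. The calls of Birc5 and Nusap1 held with 14 and 24 of 24 left out. The common median itself moved the median of all genes from -0.02 to -0.13, and that of the members from 0.30 to 0.19. Over all genes it gave 221 calls higher and 1599 lower, and the beta-actin ratio gave 193 and 245. The fit with neither gave 448 and 1476. Without vehicle at 24 h replicate 1 there were 6 calls, and with any of vehicle at 24 h replicates 4 and 5, ANIT at 24 h replicates 4 and 6 or vehicle at 120 h replicates 1 and 2 left out there was 1.

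Part of the spread within groups followed the SD of the array. Within groups, 12 members read lower and 3 higher on arrays of larger SD, and 16 were not called, where 69.7% of all genes were called, 23.3% lower and 46.4% higher. Mki67 had the steepest slope, with -1.07 ± 0.08 (SE) per 0.1 of array SD (adjusted p = 2.27e-10, limma). On the 6 arrays of smallest SD it read 7.71 to 8.23, above all other 18 arrays, which read 4.87 to 7.44. Ttk followed with -0.65 ± 0.06 and Dlgap5 with -0.37 ± 0.05. The 3 members with the opposite slope were Top2a at 0.34 ± 0.09, Birc5 at 0.19 ± 0.06 and Pbk at 0.13 ± 0.06. Nusap1, at 0.09 ± 0.07, and Prc1, at 0.03 ± 0.08, were not called.

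**Figure D4:**
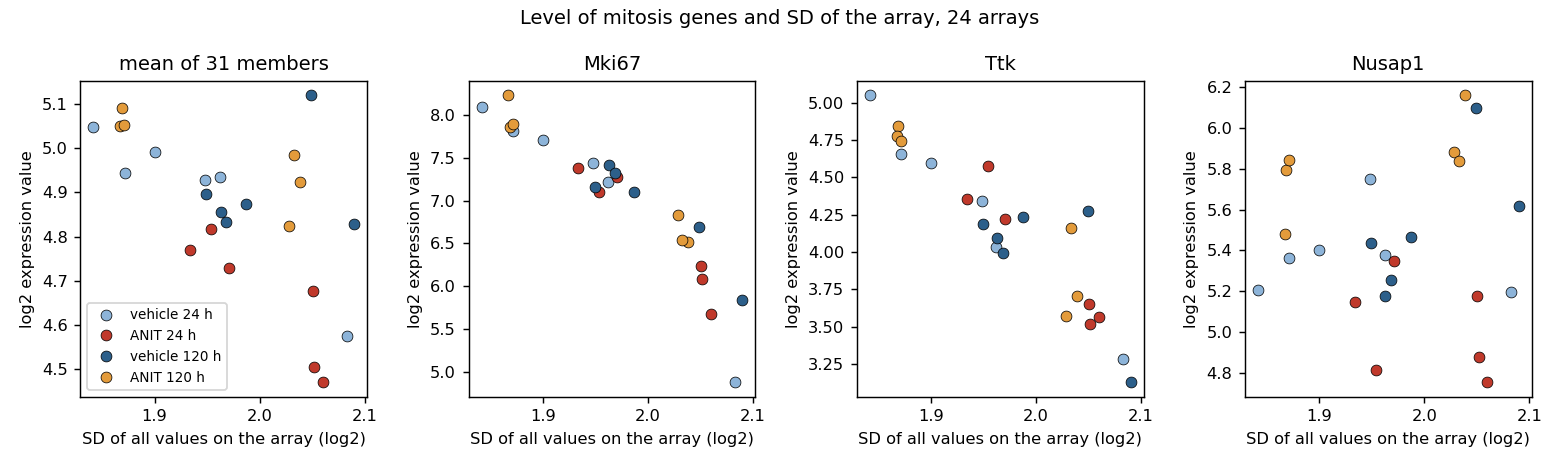
Mean of the 31 members, Mki67, Ttk and Nusap1 (log2 expression value) against the SD of all log2 values on the array, for 24 arrays coloured by group. Mki67 reads 7.71 to 8.23 on the 6 arrays of smallest SD and 4.87 to 7.44 on the others, Ttk falls likewise, and Nusap1 was not called for a slope.

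Members differed in how far they moved together within groups. After group means were removed, the correlation r between 2 members over the 24 arrays had a median of 0.15 over 465 pairs, from -0.65 for Pbk with Dlgap5 to 0.89 for Mki67 with Ttk, and 328 pairs were above 0. Mki67 also went with Dlgap5 (r = 0.84), Kif2c (0.83) and Kif23 (0.80), genes that share its slope on array SD. Outside the members, the genes most like the mean of the 31 over the 24 arrays were Slco1b2 (r = 0.83), Lin9 (0.82), Ccl24 (0.81), Mecom (0.80), Nrxn2, Haus1, Olfml2a, Rhbdl3, Ppic and Slc5a3. With group means removed they were C1ql3 (0.81), Cenpq (0.81), Foxl2 (0.81), Cnksr2 (0.80), LOC100909970, Fbxo15, Nrxn3, Ankrd2, Iqsec3 and Bmerb1. These correlations are descriptions over arrays that also share their SD, and no p is given.

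Other cell cycle genes were followed in 4 lists. Of 51 further mitosis genes, 4 fell in ANIT at 24 h, 7.84% against 5.31% of all genes. None rose, against 12.9% of all genes, and the median change was -0.20. Those that fell were Ncapg2, a condensin subunit, at -0.62 ± 0.14 (adjusted p = 0.00292), Cenpn, a centromere protein, at -0.45 ± 0.10 (adjusted p = 0.00312), Ect2, which activates the cleavage furrow, at -0.48 ± 0.16, and Anln at -0.27 ± 0.09. At 120 h none was called, against 2.02% of all genes, with a median of 0.08. Between the ANIT groups 5 rose, 9.8% against 7.79% of all genes, and none fell, against 13.3%. The rises were led by Ect2 at 0.84 ± 0.16 (adjusted p = 0.000313), Ncapg2 at 0.68 ± 0.14 and Racgap1, which works with Ect2 in cytokinesis, at 0.62 ± 0.16. In the interaction 4 were higher, Ncaph, Ect2, Cenpn and Knstrn, 7.84% against 3.33% of all genes.

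Of 37 DNA replication genes, 2 rose and 3 fell at 24 h, 5.41% and 8.11% against 12.9% and 5.31% of all genes, and 1 rose and 2 fell between the ANIT groups, 8.11% against 21.1% of all genes. At 24 h the helicase subunit Mcm4 rose by 0.41 ± 0.14 and the licensing inhibitor Gmnn by 0.34 ± 0.11, while Uhrf1, which maintains DNA methylation at replication, fell by 0.54, with Mcm10 at -0.40 and Mcm2 at -0.42. At 120 h Mcm10 alone was called, at -0.47 ± 0.11 (adjusted p = 0.0188). Between the ANIT groups Dut rose by 0.45 ± 0.11, and Mcm4 and Fen1 changed by -0.71 ± 0.14 and -0.44 ± 0.12. From vehicle at 24 h to vehicle at 120 h Mcm4 differed by -0.34 ± 0.14 and was not called (limma adjusted p = 0.349). The median of this list between the ANIT groups was 0.11, against 0.27 for the 31 members. In the interaction 2 were higher, 5.41% against 3.33% of all genes, and 0 lower, against 11% of all genes. The 2 were Uhrf1 at 0.68 ± 0.18 and Mcm2 at 0.57 ± 0.18.

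Of 12 genes of the G1 phase, 16.7% were called at 24 h, against 18.2% of all genes, with 6 changes above 0 and a median of 0.01. Tfdp1, the partner of E2F factors, and Myc rose at 24 h, by 0.55 ± 0.09 (adjusted p = 4.07e-05) and 0.77 ± 0.26 (adjusted p = 0.0393), and none fell. From ANIT at 24 h to ANIT at 120 h 4 fell and none rose, 33.3% against 21.1% of all genes. Cyclin D1 (Ccnd1) changed by -1.06 ± 0.25 (adjusted p = 0.00308), Myc by -0.99 ± 0.26, Cdc25a by -0.57 ± 0.17 and Tfdp1 by -0.45 ± 0.09. At 120 h against vehicle Ccnd1 was at -0.90 ± 0.25 and did not pass (adjusted p = 0.0634). The vehicle groups also differed in Ccnd1, by -0.66 ± 0.25 from 24 h to 120 h, which was not called (limma adjusted p = 0.339). In the interaction 3 of the 12 were lower, Cdc25a, Tfdp1 and Myc, 25% against 11% of all genes. Ccnd1 was not called there.

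Of 23 genes in a list of brakes on the cycle, 4 rose and 4 fell at 24 h, 34.8% against 18.2% of all genes. The growth arrest gene Gadd45b rose by 1.496 ± 0.25 (adjusted p = 7.78e-05), Lin52 by 0.50 ± 0.12 (adjusted p = 0.00368), Ccng1, a p53 target, by 0.74 ± 0.19 and the Cdk inhibitor p21 (Cdkn1a) by 0.85 ± 0.23. Those that fell were Lin9 at -0.42 ± 0.12 (adjusted p = 0.0126), the antiproliferative gene Tob1 at -0.36 ± 0.11, the Cdk inhibitor p57 (Cdkn1c) at -0.53 ± 0.16 and the pocket protein Rbl2 at -0.43 ± 0.14. Lin9 and Lin52 are both subunits of the core shared by DREAM and the B-MYB complex, so they are not brakes alone. At 120 h Cdkn1c rose, by 0.74 ± 0.16 (adjusted p = 0.0139), and was the only member of this list called. Between the ANIT groups 7 rose and 4 fell, 47.8% against 21.1% of all genes. The smallest p were those of Cdkn1c at 1.20 ± 0.16, Gadd45b at -1.42 ± 0.25 and Cdkn1a at -1.29 ± 0.23, and Lin9 and Lin52 stood at 0.43 ± 0.12 and -0.36 ± 0.12. In the interaction 2 were higher, Cdkn1c and Lin9, and 3 lower, Cdkn1a, Gadd45b and Gadd45a, 21.7% against 14.3% of all genes.

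Some markers of other liver cell types were called in the same comparisons. Over all genes 12.9% were higher and 5.31% lower at 24 h, and 7.79% and 13.3% between the ANIT groups. At 120 h the shares were 0.513% and 1.51%. The lists are short, and whether their counts differ from these shares was not tested. At 24 h 3 of 7 neutrophil markers rose (Il1r2, S100a8 and S100a9), with a mean level of 4.89 to 5.26 in ANIT and 4.43 to 5.07 in vehicle, and 2 of 8 lymphocyte markers fell (Cd8a and Cd79b), with 4.55 to 4.81 in ANIT and 4.79 to 4.9958 in vehicle. Of the 7 neutrophil changes 5 were positive and 2 negative, with a median of 0.03. All 8 lymphocyte changes were negative, with a median of -0.22. At 24 h 2 of 10 stellate cell and fibroblast markers fell (Lrat at -1.2525 and Reln at -0.52), 1 of 8 bile duct markers fell (Cd24 at -0.38), and 2 of 9 macrophage markers rose (Lyz2 and Cd163). Within these lists the directions were mixed, with 6 of 10, 3 of 8 and 5 of 9 changes positive. The mean level of the stellate list was 6.36 to 7.03 in ANIT and 6.55 to 6.95 in vehicle. That of the bile duct list was 4.63 to 4.87 in ANIT and 4.68 to 4.84 in vehicle, so both overlapped. From ANIT at 24 h to ANIT at 120 h, 5 of 10 stellate cell and fibroblast markers rose, Col1a1, Col1a2, Col3a1, Lrat and Reln, from a mean level of 6.36 to 7.03 to one of 6.89 to 7.45. In the same comparison 3 of 8 bile duct markers rose (Krt19, Cd24 and Cftr), from 4.63 to 4.87 at 24 h to 4.97 to 5.20 at 120 h, and so did 2 of 9 macrophage and 2 of 8 lymphocyte markers, while the 3 neutrophil markers fell, to a mean level of the list of 4.52 to 5.08. Of the 7 neutrophil changes here 2 were positive and 5 negative, with a median of -0.03. Of 10 hepatocyte markers 3 rose at 24 h, and 2 rose and 3 fell between the ANIT groups. The other 7 hepatocyte markers had negative changes at 24 h, and the median of the list was -0.05. Of 7 endothelial markers 1 rose and 2 fell at 24 h, and 1 rose and 1 fell between the ANIT groups, and none of 7 erythroid markers was called in either. Against vehicle at 120 h the same 3 bile duct markers and 1 macrophage marker (Cd163) rose, where no mitosis gene was called. The part of these cell types in the changes of the mitosis genes was not tested.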

How the data were processed

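The deposited values are log2 expression values of 31139 probe sets on 24 arrays. Per the submitters' processing notes the authors used RMA and Partek, and no further detail is given in the sources used here. RMA as usually run makes the arrays' distributions equal, but here their SDs (1.84 to 2.09) and medians (5.34 to 5.54) still differed, so the extent of the normalization is unknown. A change shared by most genes could be lost. Of the probe sets, 19068 had 1 gene, 573 several and 11498 none in the platform annotation, which left 13438 genes. Groups came from the sample descriptions.

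The 4 groups were fitted together in limma 3.58.1 (R 4.3.3, cell means, eBayes), with Benjamini-Hochberg adjustment over all genes. The fit was run on simulated data with independent values for each gene and array. Those data held no spread that follows array SD, so the run does not test the calls under such spread. Errors of changes are SE, n is 6 per group, and this number limits the precision. The members, lists and tests were chosen with earlier results of these data known. All members could be named; values of every group are given for members called in a comparison and for Mki67, Top2a, Cdk1, Ccnb1 and Aurkb, and from each list genes among the 3 of smallest p in a comparison. Other list genes, most of which complete a count of 5 or fewer, were named after their values were seen. Marker lists for hepatocytes, bile duct, stellate, endothelial, macrophage, neutrophil, lymphocyte and erythroid cells were counted too. Alternatives were 2 other normalizations, 3 array covariates, 2 subsets of genes or probe sets, 2 models of the spread, fewer arrays or groups, and each array left out.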

Additional observations from a re-analysis of the deposited data

Results flagged for a closer look

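A single array stood apart from the other 5 of its group, by Dixon's gap criterion, in 13 of 124 sets of 6 values. For independent normal values the criterion flags about 1 in 20. The sets here share arrays, and the rate over all genes was not computed, so the count cannot be compared with other genes. In vehicle at 24 h the flagged values were Mki67 at 4.87 and Dlgap5 at 5.71 in replicate 1, both low, Nusap1 at 5.75 in replicate 2, Hmmr at 4.98 in replicate 3, both high, and Top2a at 4.80 in replicate 5, low. In vehicle at 120 h they were Cenpf at 3.39 (low) and Melk at 4.53 (high) in replicate 1, Ttk at 3.13 and Cenpe at 3.31 in replicate 3, both low, and Prc1 at 6.73 and Cdca3 at 5.42 in replicate 5, both high. In ANIT at 120 h they were Cenpe at 4.27 in replicate 4 and Ccna2 at 5.84 in replicate 5, both high.

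The ANIT effect differed between 120 h and 24 h for 3 members by the interaction term in limma: Birc5 by 0.64, Nusap1 by 0.69 and Dlgap5 by 0.73, each higher at 120 h. The Dlgap5 call held with 7 of 24 arrays left out in turn and in 4 of 10 other settings. All other members missed the threshold in that test.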

How the results depend on the processing

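Counts of members called were recomputed in 11 other settings (10 for the interaction) and with each of 24 arrays left out. ANIT against vehicle at 120 h, and vehicle at 120 h against 24 h, gave 0 in all of them. At 24 h (3 lower) the count was 0 when the beta-actin ratio entered the fit, 1 when array medians were made equal, 6 with array SD as a covariate, 0 without the 6 arrays of smallest SD and 6 with array weights, and 2 to 7 with an array left out. In the interaction (3 higher) it was 0 when the beta-actin ratio entered the fit and 0 when array medians were made equal, and 1 to 6 with an array left out. Between the ANIT groups (12 higher) it was 2 with the beta-actin ratio, 6 without the 6 arrays and 5 with dim genes left out, a filter that kept 7 members, and 7 to 13 with an array left out. With the beta-actin ratio in the fit, calls over all genes also fell at 24 h, in the interaction and between the ANIT groups. Ccnb2 between the ANIT groups turned to -0.0018 (adjusted p = 0.997) with the beta-actin ratio. The causes were not tested. No paired analysis was possible because the replicate numbers follow sample order and pair no rats. Weak signal limits Bub1b and Aurkb most, since their values lie near the nonspecific controls.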
